A study of Mus musculus with 10 samples.

Results

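mmu-miR-34a and mmu-miR-34c are 2 of the 566 mouse miRNA probes on a NanoString nCounter panel, an assay without amplification in which each miRNA is tagged, bound by a colour-coded probe and counted 1 molecule at a time. They were taken by name from the table of raw counts. The 10 libraries came from C57BL/6 B cell progenitors of E14.5 fetal liver, grown in culture after infection with a retrovirus coding for the v-Abl kinase (pMSCV-v-Abl), with IL-7 present during transformation. 5 libraries were wild type (1 to 5) and 5 carried the mutant allele Bim3'UTRmut/mut on both copies of Bim, a gene for a pro-apoptotic BH3-only protein (6 to 10). All 10 therefore share the v-Abl transformation, and the series has no untransformed cells. The labels state neither the p53 status of the cultures nor whether a genotype's libraries derive from different embryos or cultures. The p-values therefore refer only to the spread among these libraries, which may be technical. The comparison asks whether miRNA content differed between the genotypes.

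The miR-34 family is known as a direct transcriptional output of p53. miR-34a is made from a gene of its own, and miR-34b and miR-34c come from 1 shared transcript. In mammals they lower the output of cell cycle and survival genes such as Cdk6, Ccnd1, Myc and Bcl2, and mouse miR-34a restrains the pro-B to pre-B transition by acting on Foxp1. miR-34b and miR-34c are best known from testis and ciliated epithelium, where the related miR-449 miRNAs are also made. v-Abl transformed B cell lines often lose the Arf and p53 pathway as they are established in culture.

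The mature sequences below show what miR-34a has in common with the related probes on the panel, with bases 2 to 8, the seed that pairs with target mRNAs, in capitals. They are from RefSeq (GRCm38.p6), whose table matched 5 of the 7 probes of the miR-34 and miR-449 family, and each is written 5′ to 3′.

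miR-34a: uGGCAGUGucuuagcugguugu

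miR-34b-5p: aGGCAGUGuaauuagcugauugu

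miR-449a: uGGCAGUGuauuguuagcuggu

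miR-449c: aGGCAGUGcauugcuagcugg

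miR-34b-3p: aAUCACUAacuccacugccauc

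miR-34a lies at chr4:150068473-150068494 on the plus strand, outside the span of any other annotated gene. miR-34b-5p lies at chr9:51103610-51103632 on the minus strand. Mir34b and Mir34c are neighbours on chromosome 9 and fall within the annotated spans of Btg4 and Hoatz. The 2 miR-449 sequences printed are on chromosome 13. The seed is shared by miR-34a, miR-34b-5p, miR-449a and miR-449c, the only 4 of 1679 mature mouse miRNAs in the table that have it. Outside the seed they diverge: miR-34a is 4 single-base edits (changes, insertions or deletions) from miR-34b-5p, 6 from miR-449a and 7 from miR-449c. miR-34b-3p, from the other arm of the miR-34b hairpin, is 14 edits from miR-34a and has another seed. miR-34c and miR-449b are the remaining probes of the family. Neither was matched to a mature sequence, so the count of 4 does not tell whether they share the seed.

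miR-34a was above background in all 10 libraries. Background was set in each library as the mean + 2 SD of its 8 negative control probes, which gave thresholds from 90.5 to 127 counts. The wild type libraries 1 to 5 counted 601, 624, 590, 597 and 388 molecules of miR-34a. The mutant libraries 6 to 10 counted 251, 430, 452, 836 and 455. 4 wild type libraries were nearly level and wild type 5 was low, whereas the mutant group held both the lowest and the highest library, mutant 6 and mutant 9, so the groups overlapped. The lowest count was 2.63 times its library's threshold and the highest 7.79 times. Counting error alone was 3.46% to 6.31% of these counts.

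**Figure D1:**
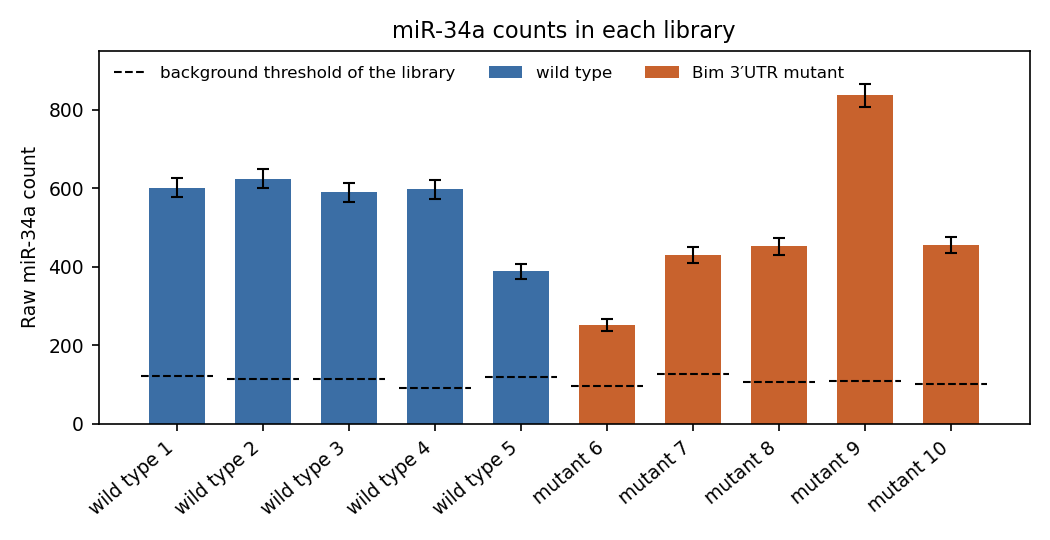
Raw miR-34a counts (y axis) in each of the 10 libraries (x axis), blue for wild type and orange for Bim 3′UTR mutant. Error bars are the square root of the count (counting error only) and dashed lines the background threshold of each library, which every bar exceeds. Mutant 6 (251) and mutant 9 (836) are the extremes.

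Total mouse miRNA counts ran from 240469 to 354826 per library, so miR-34a was also set against its library's total. Its share was 0.226%, 0.246%, 0.225%, 0.248% and 0.157% in wild type 1 to 5. In mutant 6 to 10 it was 0.0999%, 0.169%, 0.157%, 0.236% and 0.137%. The share in mutant 6 had an exact (Clopper-Pearson) 95% interval of 0.0879% to 0.113%, which covers counting error only, and that in mutant 9 one of 0.220% to 0.252%. The high raw count of mutant 9 thus went with the largest miRNA total, and its share lay inside the wild type range. The mean share was 0.220% ± 0.0369 in wild type and 0.160% ± 0.0498 in mutant libraries (SD, n = 5 each). The difference of -0.0606 percentage points did not pass an exact two-sided permutation test of the means (p = 0.0873, where the smallest possible value is 0.00794). It reached an exact permutation p of 0.0476 without wild type 5 (-0.0764) and without mutant 9 (-0.0796). The totals include miR-2141 and miR-720, treated here as probes for fragments of other RNAs. With these probes left out of the totals the difference was -0.0706 (exact permutation p = 0.0873).

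For the test across miRNAs, counts were scaled by TMM factors over the 116 probes above background in at least 5 libraries. Normalised counts of miR-34a were 609, 649, 616, 669 and 434 in wild type 1 to 5. They were 269, 421, 426, 681 and 426 in mutant 6 to 10. After scaling, 4 of the 5 mutant libraries lay below the lowest wild type library, 3 of them by a small margin, and mutant 9 lay above the highest. That number depended on the scaling, being 2 under DESeq2 size factors, 3 with the 100 highest miRNAs and 1 with housekeeping mRNAs. The group means were 595 ± 93.4 in wild type and 445 ± 148 in mutant libraries (SD, n = 5 each), a ratio of 0.747. The fitted log2 fold change, mutant over wild type, was -0.42 (SE 0.23, approximate 95% interval -0.96 to 0.12), and it did not pass the edgeR quasi-likelihood test (adjusted p = 0.401). The unadjusted edgeR p was 0.101, the 28th smallest of the 116.

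That result can be read against the whole panel. In edgeR 0% of the 116 probes passed an adjusted p of 0.05, with 11 of them, or 9.48%, at an unadjusted p under 0.05. DESeq2 called 5 probes, or 4.31%, none of them miR-34a (adjusted p = 0.289 in the DESeq2 Wald test). A fitted value below 0 was found for 50% of probes. The groups did not overlap in 2.59% of probes, and miR-34a was not among them. Its fitted change was the 22nd largest in absolute size, against a median absolute log2 fold change of 0.19.

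The spread of miR-34a within each genotype rested largely on 1 library. Its coefficient of variation in normalised counts was 15.7% in wild type and 33.3% in mutant libraries, where the medians over the 116 probes were 12.2% and 19.8%. Without wild type 5 it was 4.42% in wild type, beside a median of 8.19%. Without mutant 9 it was 20.1% in mutant libraries, beside a median of 18.4%. Without mutant 6 it was 26.3%, beside a median of 21.0%. The highest mutant library was 2.53 times the lowest, and the highest wild type library 1.54 times the lowest.

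The mutant libraries did not form 1 set. In let-7b, for example, mutant 6, 7 and 8 had 27.9, 36.2 and 23.6 normalised counts and mutant 9 and 10 had 985 and 1329. The first 3 values come from raw counts of 26, 37 and 25, under the background threshold of their libraries. Under TMM miR-34a did not follow this split. Mutant 10 was level with mutant 7 and 8, and only mutant 6 and mutant 9, 1 from each set, stood apart. The place of mutant 10 in miR-34a changed with the scaling. It was 0.833 of the wild type mean with spiked-in positive controls and 1.07 with housekeeping mRNAs, above mutant 6, 7 and 8. With the 100 highest miRNAs it was 0.628 and with the total miRNA count 0.623, below mutant 7 and 8. With mutant 9 and 10 left out, the log2 fold change was -0.67 (SE 0.20; edgeR adjusted p = 0.107, unadjusted p = 0.0111). With mutant 6, 7 and 8 left out it was -0.10 (SE 0.24; edgeR adjusted p = 0.730). Without mutant 6 alone it was -0.29 and without mutant 9 alone -0.58, and no call was made in either case (edgeR adjusted p = 0.458 and 0.310). The libraries left out together were chosen from a pattern in these same data, so the p-values of those fits do not test the split.

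The value also depended on how the libraries were scaled. Under DESeq2 size factors, the 100 highest miRNAs or the total miRNA count, the mutant mean of miR-34a was 0.747, 0.718 and 0.725 of the wild type mean. Scaling to the 6 positive controls, which are spiked in and do not depend on the sample's RNA, gave 0.891. Scaling to the 4 housekeeping mRNAs gave 1.10, with a log2 fold change of 0.14 (SE 0.37). Those last 2 scalings also moved the median of all 116 probes, to 0.20 with the positive controls and to 0.46 with the mRNAs. Relative to these medians miR-34a lay at -0.37 and -0.32, on the same side as under TMM, where it lay at -0.42. Subtracting the median removes most of the shift that a scaling gives to all probes. The like sign is therefore no separate evidence on direction. Mutant 9 moved furthest: it stood at 1.14 times the wild type mean under TMM, 1.59 times with positive controls and 2.21 times with the mRNAs. This library had the lowest housekeeping factor (0.734) and the highest miRNA total (1.29 times the mean library), and their part in the result was not tested.

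**Figure D2:**
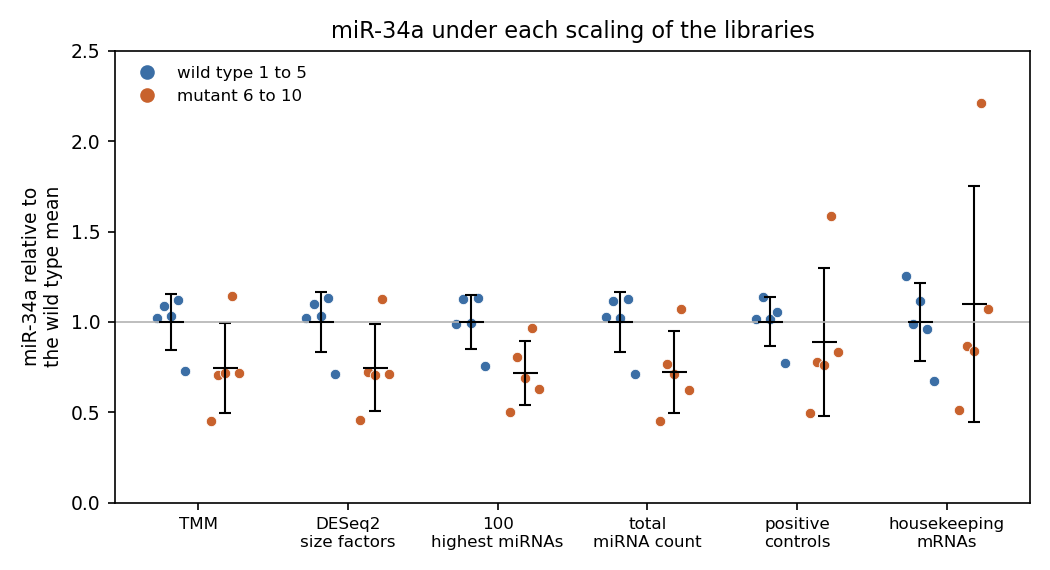
miR-34a in each library divided by the wild type mean (y axis, linear) under 6 ways of scaling the libraries (x axis). Blue points are wild type 1 to 5, orange points mutant 6 to 10, and black marks the mean ± SD of 5 libraries. The mutant mean lies at 0.747 under TMM and at 1.10 with housekeeping mRNAs, where mutant 9 reaches 2.21.

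**Figure D3:**
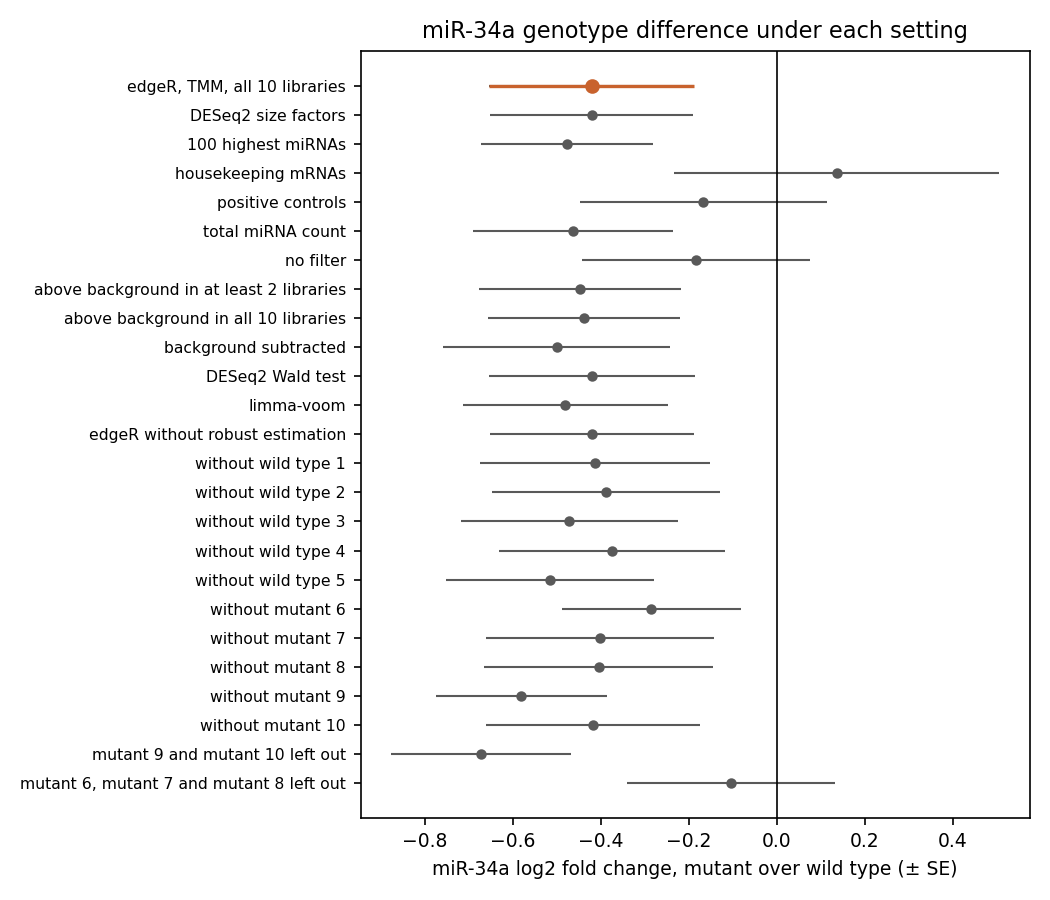
Log2 fold change of miR-34a, mutant over wild type (x axis, point ± SE), under each setting (y axis), with the fit to all 10 libraries in orange. Values run from -0.67 to 0.14, and none passed an adjusted p of 0.05.

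miR-34c gave a different picture: it stood at a count of 1 in 9 of the 10 libraries and at 207 in mutant 8. A count of 1 was below all 8 negative controls of its library in each of the 9 cases. The panel's negative controls themselves counted from 14 to 119. Only 2 of the panel's 626 probes held a count of 1 anywhere, miR-34c and miR-543, which stood at 1 in all 10 libraries. The lowest count of any other probe was 3. Whether the values of 1 were measured or filled in during processing is not given here. No level, fold change or test between genotypes was derived from them.

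In mutant 8, the 207 counts of miR-34c were 1.95 times the threshold of 106 and above the highest negative control, at 116. They made up 0.0720% of the library's miRNA counts (exact 95% interval 0.0625% to 0.0825%, counting error only), rank 83 among its mouse probes. In all, 23 mouse probes exceeded the threshold in a single library. Of these miR-34c had the highest count relative to its threshold, followed by miR-221 at 1.38 times in mutant 10 (named after its values were seen). The other probe above threshold in mutant 8 alone was miR-92a, with 123 counts there and 82 to 104 elsewhere. miR-34a in mutant 8 counted 452, between mutant 7 and mutant 10.

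The partners of miR-34c were not high in mutant 8. miR-34b-5p, from the same transcript, counted 41 in mutant 8, its lowest value in the 10 libraries, against 46 to 73 elsewhere. miR-34b-3p counted 36 there, also its lowest, against 52 to 78. Neither miR-34b probe exceeded the threshold in any library. Mutant 8 had the lowest mean of the negative controls, 38.9, in a range that reached 58.5. The miR-449 probes, which share the seed or the family name, were as low: miR-449a counted 25 to 54, miR-449b 10 to 25 and miR-449c 10 to 26, all under the threshold in all libraries. Of the 7 family probes, miR-34a was the only one above background in more than 1 library.

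**Figure D4:**
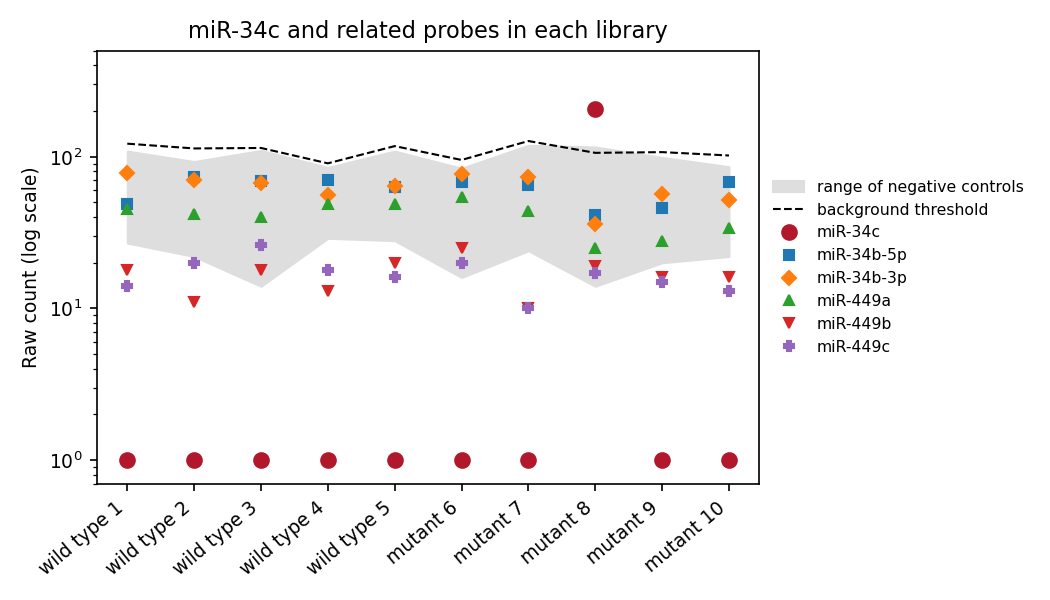
Raw counts (y axis, log scale) of miR-34c and the 5 other miR-34b and miR-449 probes in each library (x axis). Grey marks the range of the 8 negative controls and the dashed line the background threshold. miR-34c sits at 1 in 9 libraries and at 207 in mutant 8, and the other 5 probes stay under the threshold throughout.

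Other miRNAs tied to p53 were compared from lists chosen with earlier results of these data known. Of 11 panel probes for miRNAs reported to be induced by p53, 3 were kept, beside 116 of all 566 mouse probes. The 3 were miR-34a, miR-107 and miR-22. None of the 3 passed in edgeR, and their median log2 fold change was -0.18 beside -0.00 over all 116 probes. miR-107, which lies in a Pank1 intron and lowers cell cycle genes, counted 121 to 147 in wild type and 94 to 174 in mutant libraries, close to its background. Its log2 fold change was -0.18 (SE 0.18; edgeR adjusted p = 0.680), and it was above 0 with positive controls (0.0072) and with housekeeping mRNAs (0.24).

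miR-22 spread more widely than miR-34a. It counted 341, 575, 420, 466 and 227 in wild type 1 to 5 and 105, 214, 180, 1038 and 1218 in mutant 6 to 10. Mutant 6, 7 and 8 were below all wild type libraries and mutant 9 and 10 above all of them. The log2 fold change over all 10 libraries was 0.20 (SE 0.63; edgeR adjusted p = 0.947). It was -1.39 with mutant 9 and 10 left out (edgeR adjusted p = 0.0550) and 1.20 with mutant 6, 7 and 8 left out (edgeR adjusted p = 0.0436). Of all 116 probes, 5 passed in the first of these fits and 20 in the second. The libraries left out were chosen from a pattern in these same data, which miR-22 shares, so these p-values do not test the split.

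The p53-induced miR-192, miR-194, miR-145 and miR-141 did not exceed the threshold in any library, and miR-200c did so in 3. Among miRNAs whose processing p53 is reported to promote, 1 of 3 was kept. This was miR-16, which restrains Bcl2 and cyclins and had a wild type mean of 24256 ± 1405 normalised counts and a mutant mean of 26602 ± 4428 (SD, n = 5 each). Its log2 fold change was 0.13 (SE 0.12; edgeR adjusted p = 0.654), and it became 0.28 without mutant 9, where edgeR called it (adjusted p = 0.0426). miR-143 stayed below the threshold throughout.

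Of 7 miRNAs reported to target the p53 mRNA itself, 3 were kept, and none passed in edgeR. miR-25, of the cluster within Mcm7, had a log2 fold change of 0.27 (SE 0.11; edgeR adjusted p = 0.373). miR-30d had 0.52 (SE 0.14; edgeR adjusted p = 0.250) with no overlap between the genotypes, and DESeq2 called it (adjusted p = 0.00455). miR-33, which lies in an Srebf2 intron and acts on cholesterol export, had -0.24 (SE 0.17; edgeR adjusted p = 0.505). Across the 3 lists, 0 of 7 kept members passed in edgeR (0% of all 116 probes) and 1 in DESeq2 (4.31% of all probes). At an unadjusted edgeR p under 0.05 there were 2, both higher in mutant libraries, where 9.48% of all probes reached it. With so few members these counts single out no list.

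The probes whose pattern was most like that of miR-34a were found by the Pearson correlation of log2 normalised counts over the 10 libraries, as a description. The points share their libraries and scaling, including the split of the mutant libraries seen in let-7b. Of 115 other probes, let-7b came first (r = 0.731, Spearman 0.624), then miR-1224 (0.686, 0.733), miR-21 (0.685, 0.552), miR-22 (0.674, 0.721) and let-7c (0.668, 0.612). Without mutant 6 and 9, the libraries farthest from the miR-34a median, these values lay between 0.252 for miR-21 and 0.584 for let-7b. At the other end stood miR-210, a hypoxia-induced miRNA, at -0.839 (Spearman -0.939), followed by miR-1186 (-0.794) and miR-16 (-0.730). miR-210 kept -0.885 without mutant 6 and 9. Its raw count was 1092 in mutant 6, where miR-34a was lowest. In mutant 9, where miR-34a was highest, it was 48, under the threshold of 107 and level with the mean of the negative controls, so its correlation uses a value not above background. The same holds for let-7b in mutant 6, 7 and 8 and for let-7c in mutant 7 and 8.

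**Figure D5:**
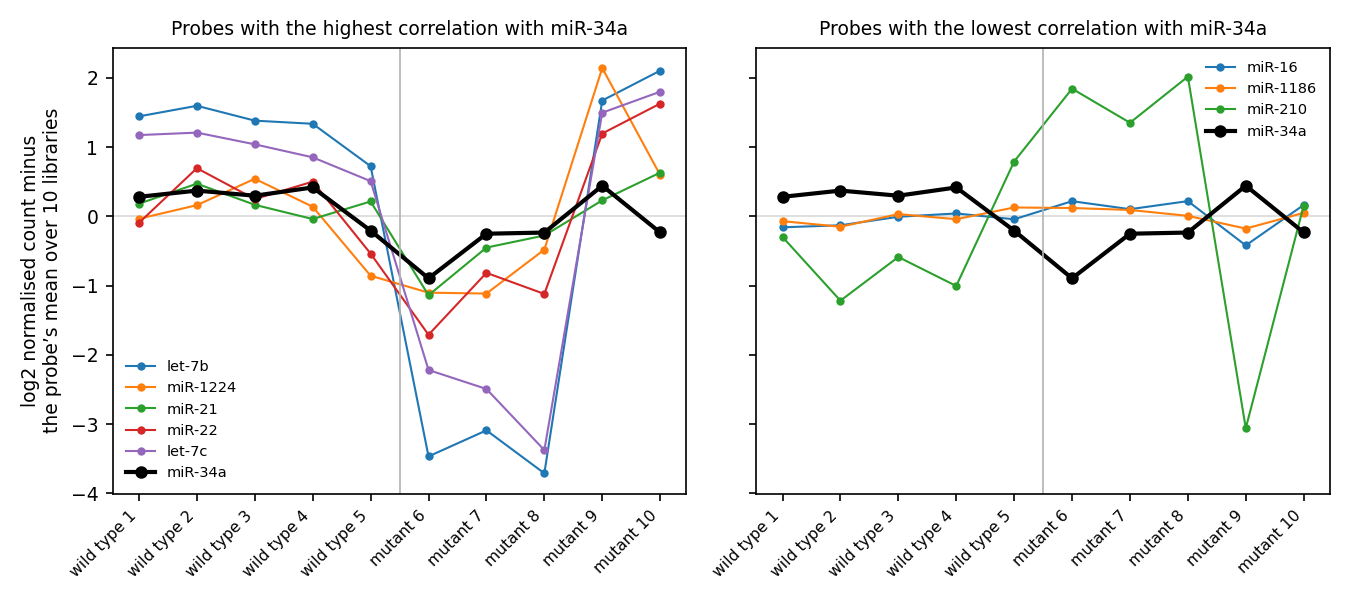
Log2 normalised counts minus each probe's mean (y axis) in the 10 libraries (x axis), for miR-34a (black) with the 5 probes of highest correlation (left) and the 3 of lowest (right). Lines only join the values of 1 probe. let-7b in mutant 6, 7 and 8, let-7c in mutant 7 and 8 and miR-210 in mutant 9 were not above background, so the depth of these low points is set by background. The other values plotted were above it.

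The labelled cell type was checked against marker miRNAs. All 6 haematopoietic and B-lineage probes listed (miR-142-3p, miR-142-5p, miR-150, miR-155, miR-181a and the probe for miR-181b and miR-181d) were kept, with 56 of 60 values above threshold and summed counts from 24786 to 41361. Most of each sum was miR-142-3p, which alone counted 20401 to 29587. miR-150 ran from 60 in wild type 5, under the threshold, to 961 in mutant 8. No probe listed for erythroid, myeloid, endothelial, hepatocyte, mesenchymal, muscle or neural cells was kept. Above the threshold were 1 of 20 erythroid values (miR-451), 2 of 10 myeloid values (miR-223) and 2 of 20 endothelial values (miR-126-3p), and 0 of the other lists. Mutant 10 had the highest count of both miR-126-3p (234) and miR-223 (137), over its threshold of 102. The other values above threshold for these probes were 105 for miR-126-3p in mutant 6 and 92 for miR-223 in wild type 4. In mutant 8, where miR-34c was counted, every probe of the lists other than the haematopoietic and B-lineage one stayed under the threshold. No list covered testis or epithelial cells, so a contribution from those cells was not tested. miR-200b and miR-203, used as epithelial markers, were on no list and were kept (named after their values were seen). In mutant 8 they had 126 and 130 normalised counts. Over the 10 libraries they ran from 122 to 203 and from 63.7 to 462.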

How the data were processed

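Per the labels' protocols, the nCounter received 100 ng of RNA for each library, and RNA of low purity was not used. The deposited tables hold counts per probe; no normalisation by the authors shows in the values, and 626 probes in both tables had 0 differing values. The counting software is not given in these sources. 0 columns of other samples were present; the tables' own summary columns were not used.

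Groups came from the titles. Kept probes (116 of 566) exceeded the mean + 2 SD of the negative controls in at least 5 libraries. They were tested in edgeR 4.0.16 (R 4.3.3; TMM, robust quasi-likelihood, Benjamini-Hochberg at 0.05, approximate intervals of 95%), which was also tested on simulated data. On the simulated data edgeR called 65% of 2-fold changes, 89.5% of 4-fold changes and 1.41% of unchanged probes. The fitted miR-34a change was below 2-fold. Alternatives used DESeq2 1.42.0, limma 3.58.1 (voom), 5 other scalings, 3 other filters, background subtraction, no robust estimation and libraries left out. Members, lists and tests were chosen with earlier results of these data known. Named miRNAs are the family, kept members of the p53 lists and the 5 most and 3 least correlated probes.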

Additional observations from a re-analysis of the deposited data

Results flagged for a closer look

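Of 25 groups of 5 libraries examined for the family and the kept p53 list members, 3 had a library far from the other 4 (a gap over 0.710 of the group's range), and chance flags about 1 in 20. miR-34c stood at 207 counts in mutant 8 and at 1 in the other 4 mutant libraries. With those 4 equal, any other value in mutant 8 would have been flagged. The rate of 1 in 20 therefore does not apply to miR-34c. miR-34a stood at 434 normalised counts in wild type 5, with the other wild type libraries at 609 to 669. miR-16 stood at 18862 normalised counts in mutant 9, with the other mutant libraries at 27110 to 29386. The causes were not tested.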

How the results depend on the processing

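miR-34a was below 0 in 23 of 24 alternatives and called in none (edgeR, limma or DESeq2 adjusted p from 0.107 to 0.843). The exception in sign was scaling to housekeeping mRNAs, at 0.14, and Gapdh and B2m among these mRNAs were uneven across the mutant libraries. Leaving out 1 library gave -0.58 to -0.29, and the unfiltered fit gave -0.18. The share difference ran from -0.0796 (without mutant 9) to -0.0456 (without mutant 6), and passed without mutant 9 and without wild type 5 only. The number of miRNAs called, 0 in edgeR with all libraries, was 5 in DESeq2, 0 to 1 with 1 library left out (miR-16 without mutant 9, miR-29b without mutant 10), 5 without mutant 9 and 10, and 20 without mutant 6, 7 and 8. Of the 7 kept members of the p53 lists, 1 was called in DESeq2 (5 of all 116 probes) and 0 to 1 with 1 library left out. Without mutant 9 and 10 it was 0 (5 of all 116 probes), and without mutant 6, 7 and 8 it was 4 (20 of all 116 probes). The libraries left out together were chosen from a pattern in these same data. miR-34c was above background in 1 library under every threshold tried, and in 0 without mutant 8, otherwise in 1 with 1 library left out. Other signs that turned were miR-107 at 0.24 with housekeeping mRNAs, 0.0072 with positive controls, 0.026 unfiltered and 0.071 without mutant 9 and 10; miR-16 at -0.041 without mutant 6, 7 and 8; miR-33 at 0.21 with housekeeping mRNAs; and miR-22 at -0.35 in limma-voom, -1.39 without mutant 9 and 10, and from -0.41 (without mutant 10) to 0.45 (without mutant 6) with 1 library left out. Causes were not tested. Leaving libraries out of the detection counts and the coefficients of variation, and the alternatives for the other p53 miRNAs, were added after the data were seen. No paired analysis was possible because the genotypes share no sample numbers. With 5 libraries per genotype the miR-34a interval spans 0, and miR-34c allows no level.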
